A study of Mus musculus with 4 samples.

Results

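The WD repeat genes named Wdr and a number form a family of 56 protein-coding mouse genes, taken by symbol from 21938 protein-coding genes of the GRCm38 annotation, with Wdr19, Wdr34, Wdr35 and Wdr60 left out. RFX2 binding at their promoters was read from ChIP-seq peak lists of mouse testis. Chromatin came from decapsulated testes of wild type males on a mixed C57BL/6, 129/Sv and FVB/N background, labelled postnatal day 29 to 30, whereas the text of the study names dissociated germ cells of younger males for this assay. RFX2 was precipitated from 2 mice (replicates 1 and 2), each with an input library, and no group without RFX2 was assayed. Peaks were listed for each replicate and in a combined list, and the inputs entered only as background of the peak calls. The question was which Wdr genes carry RFX2 at a promoter in testis.

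WD repeats are short sequence units that fold together into a propeller, a platform on which other proteins assemble. Wdr proteins share this fold rather than a task, and they serve in cilia, ribosome production, histone modification, RNA processing, endosomes and ubiquitin pathways. RFX factors bind the X-box, an imperfect inverted repeat, and are best known for activating genes of the cilium, an organelle related to the sperm tail. The axoneme forms the interior of that tail.

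The replicate 1 list held 39825 peaks, the replicate 2 list 21274 and the combined list 2726. A promoter spanned 1000 bp upstream to 500 bp downstream of any annotated transcription start site (TSS), and a peak counted when it met a promoter by at least 1 bp. A replicate score is the −log10 value in that replicate's list, and the sources used here do not state if p-values or q-values lie behind it. The lowest value was 2.03 in replicate 1, 2.08 in replicate 2 and 43.2 (−log10 p) in the combined list, which therefore holds strong peaks only. Read depth is unknown from the lists.

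The sequences under the peaks are shown first, because the peaks of the Wdr genes differed in how well they matched the X-box. The reference was the palindrome GTTGCCA followed at once by its reverse complement. The 200 bp around each combined summit were searched on both strands. The best match is printed 5′ to 3′ on the strand of the gene, from build GRCm38.p6, with the 14 matched bases in capitals and 8 bases of flank on each side in lower case. The first group holds matches with at most 3 mismatches, which are called X-boxes here. The X-box of Wdr7, the fifth by this rule, is described with that gene and its sequence is not printed.
Wdr5 (chr2:27514042-27514071, plus strand): acactcttGTAGCTATGGCAACcacacact
Wdr13 (chrX:8132575-8132604, minus strand): ggaggggcGTTGCTACGGCAACtggagagg
Wdr66 (chr5:123252080-123252109, plus strand): gactagccGTTGCCATAGGGACggagcttg
Wdr78 (chr4:103114251-103114280, minus strand): gctccgcgGTCGCCATGGCGCCcggcaaac
Differences are written as the palindrome's base, the position from 1 at the 5′ end of the match, and the base of the site. Wdr5 differed at 2 positions (T3A and C6T), both in the first arm, and its second arm was complete. Wdr13 also differed at 2 positions (C6T and T8C). Wdr66 kept a complete first arm and differed at G9A, C11G and A12G. Wdr78 differed at T3C, A12G and A13C.

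The second group shows the best match at the peaks that had no X-box by this rule. It is printed so that the extent of the mismatch can be seen, since Wdr17 and Wdr31 had higher peaks than 4 of the 5 genes with an X-box.
Wdr27 (chr17:14943105-14943134, minus strand): tttcccccGTAACCATAGCGACgcggctgg
Wdr54 (chr6:83156468-83156497, minus strand): acccaacgGTCTCCTCGGCAACcaggcccc
Wdr93 (chr7:79743145-79743174, plus strand): aagtggtaGTTACTAAGGCGACgccaagcc
Wdr17 (chr8:54724592-54724621, minus strand): gcagccgcGTTGCTAGGTAACCaactctcc
Wdr31 (chr4:62470939-62470968, minus strand): gttccgggGCTGCCGTGGACGCccggagcg
Wdr90 (chr17:25861553-25861582, minus strand): tgtgcgttGCTGCAGCGGCGACggaagtga
Wdr73 (chr7:80901172-80901201, minus strand): gtggagtcTTTGCGATTGTAAAttggcccg
Wdr63 (chr3:146107999-146108028, minus strand): gaggtttaTTTTCCTGAGCAAGaagagtca
Wdr27, Wdr54 and Wdr93 had 4 mismatches. Wdr17, Wdr31, Wdr73 and Wdr90 had 5, and Wdr63 had 6. Wdr54 kept 1 intact arm core (GGCAAC), and its 4 mismatches all lay in the rest of the match.

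A promoter peak in the combined list was found at 13 of the 56 Wdr genes. The share was 23.2% (exact Clopper-Pearson 95% interval 13.0 to 36.4), beside 5.21% of the 21882 other protein-coding genes. In the replicate 1 list 20 Wdr genes had a promoter peak (35.7%, interval 23.4 to 49.6), beside 13.9% of other genes. In the replicate 2 list 15 had one (26.8%, interval 15.8 to 40.3), beside 11.2%. All 15 also had a replicate 1 peak, so both replicates listed 26.8% of Wdr genes, beside 9.00% of other genes, and in all 15 the best peaks of the replicates overlapped. The intervals cover counting error only, and no test was run, since genes are not replicates of a condition.

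**Figure D1:**
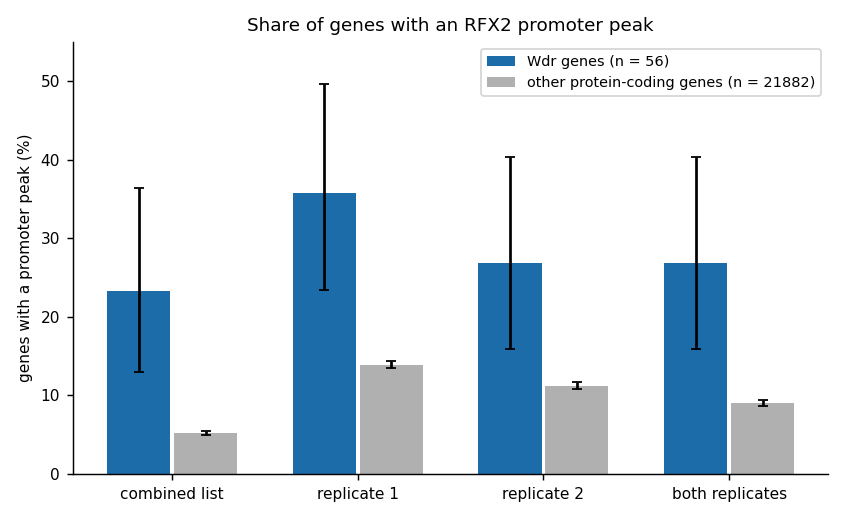
Share of genes (%) with an RFX2 promoter peak in each list, for 56 Wdr genes and 21882 other protein-coding genes; bars are shares and whiskers exact 95% intervals. The Wdr share was 23.2% against 5.21% in the combined list, and in all 4 measures the interval of the Wdr genes lay above that of the other genes.

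Wdr genes had more annotated TSSs than other genes (median 6 against 3), so more windows were searched per gene. They were also longer (median 34.1 against 17.4 kb). With a single TSS per gene, the 5′-most, 12 Wdr genes (21.4%) met a combined peak, beside 4.44% of other genes. Only Wdr17 was lost by this change. The GC content of the promoters differed little (median 51.7% in Wdr genes and 51.8% in others), while the ratio of observed to expected CpG was 0.619 against 0.491. The part of CpG content in the shares was not tested.

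By role, 5 of 9 Wdr genes of cilia and centrioles had a combined promoter peak, beside 5.21% of other protein-coding genes. Of 9 genes of ribosome production none had a promoter peak in any list, beside 16.2% of other genes, a share at which few of 9 genes would be listed. Among genes of chromatin and RNA it was 1 of 7, of endosomes and autophagy 1 of 8, of ubiquitin pathways 0 of 4, and of genes given no role here 6 of 19. With groups this small, counts of 0 and 1 lie near the background, and the differences between groups were not tested. The role lists were chosen with earlier results of these data known, and 19 genes were left without a role. The count of 5 of 9 therefore describes this assignment only.

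**Figure D2:**
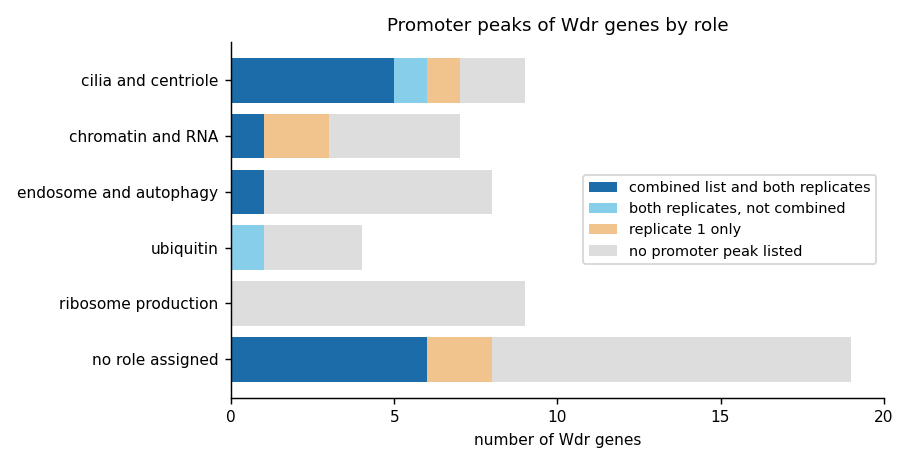
Number of Wdr genes in each role, split by the lists that hold a promoter peak. Roles were chosen with earlier results of these data known. The cilia and centriole bar holds 5 genes in the combined list and 2 with none in any list, and the ribosome production bar holds 9 genes, none with a promoter peak listed.

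The strongest peak lay at Wdr66, which encodes a protein of the ciliary and flagellar axoneme (also known as CFAP251). Its score was 275 in replicate 1 and 198 in replicate 2, where it ranked 26 and 6 in the whole lists. In the combined list it ranked 22 of 2726, with −log10 p of 337 and a fold enrichment of 30.4 over local background. The summit lay 15 bp upstream of the TSS and 8 bp from the X-box printed above, which ends at the base before the TSS.

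Wdr31, a gene linked to ciliary transport, scored 175 in replicate 1 and 87.7 in replicate 2. It ranked 225 in the combined list (−log10 p of 207, 15.8-fold), with the summit 8 bp upstream of the TSS. Wdr90 encodes a protein of the centriole wall. Its scores were 115 and 54.2 in replicates 1 and 2, and it ranked 611 (−log10 p of 136, 10.1-fold), with the summit 33 bp upstream. Both genes had 5 mismatches in their best palindrome match, so peaks of this height were not limited to genes with an X-box.

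Wdr63 and Wdr78 encode intermediate chains of axonemal dyneins, the motors that bend cilia and sperm tails. Wdr63 scored 54.9 in replicate 1 and 25.9 in replicate 2, and ranked 1422 (−log10 p of 79.2, 19.7-fold). Its summit lay 63 bp downstream of the nearest TSS, and among the other bound genes only Wdr27, at 1 bp, had a summit that was not upstream. Wdr78 had the weakest combined peak of the family. Its scores were 34.4 and 14.6, and it ranked 2713 (−log10 p of 43.6, 5.85-fold), near the end of the combined list. Its summit lay 27 bp upstream of an internal TSS and 304 bp downstream of the 5′-most one, and the peak also met the divergent promoter of Mier1.

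The other 4 cilia and centriole genes were bound weakly or not listed. Wdr47, a regulator of microtubules, had promoter peaks in both replicates, with scores of 12.1 and 2.27, of which the second was close to the lowest value listed. Wdr92, which takes part in the assembly of dynein arms, was listed in replicate 1 only (9.46). Wdr11, which acts in ciliary Hedgehog signalling, and Wdr62, a protein of the spindle poles, had no promoter peak in any list. The edge of a combined peak lay 5425 bp from the nearest TSS of Wdr11.

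**Figure D3:**
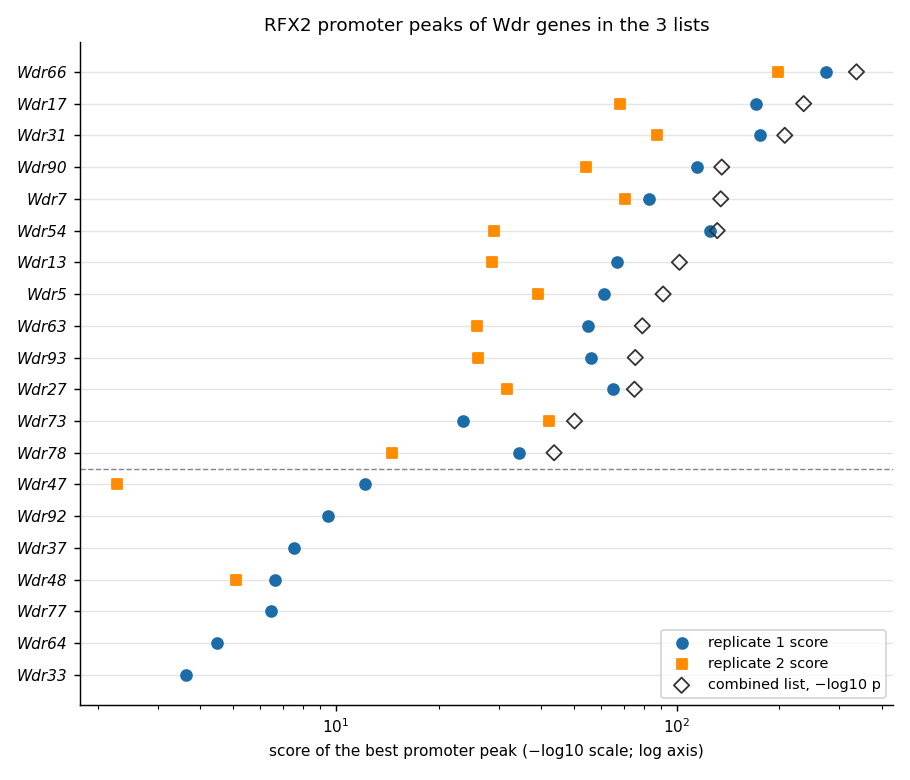
Score of the best promoter peak of each of the 20 Wdr genes with one, on a log axis, in replicate 1, replicate 2 and the combined list; genes above the dashed line have a combined peak. Wdr66 leads all 3 series, and the 7 genes below the line score at most 12.1.

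Among genes of chromatin and RNA, Wdr5 was in the combined list. It encodes a shared subunit of complexes that methylate histone H3. Its scores were 61.3 in replicate 1 and 39.1 in replicate 2, and it ranked 1176 (−log10 p of 91.2, 24.0-fold). The summit lay 1109 bp upstream of the TSS, outside the promoter window, and only the edge of the peak reached the window. With a narrower promoter of 500 bp upstream to 50 bp downstream, Wdr5 was the gene lost from the combined list, Wdr5, Wdr33 and Wdr77 were lost from replicate 1, and Wdr47 from replicate 2. Wdr33, a subunit of the polyadenylation machinery, and Wdr77, the partner of the arginine methyltransferase Prmt5, were listed in replicate 1 only, with scores of 3.64 and 6.46. Wdr4, Wdr6, Wdr61 and Wdr82 had no promoter peak, and the edge of a combined peak lay 8382 bp from the TSS of Wdr6.

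Of the endosome and autophagy genes, Wdr7, which encodes a partner of the vacuolar proton pump, was bound. It scored 82.7 in replicate 1 and 70.7 in replicate 2, and ranked 617 (−log10 p of 135, 17.1-fold). The summit lay 125 bp upstream of Wdr7 and 46 bp upstream of the divergent gene Txnl1, and an X-box with 3 mismatches lay 6 bp from it. Wdr24, Wdr41, Wdr44, Wdr45, Wdr59, Wdr81 and Wdr91 had no promoter peak in any list. Of the ubiquitin genes, Wdr48, which activates deubiquitinases, was listed in both replicates (6.60 and 5.08), and Wdr20, Wdr26 and Wdr76 in none. The 9 ribosome production genes without a promoter peak were Wdr3, Wdr12, Wdr18, Wdr36, Wdr43, Wdr46, Wdr55, Wdr74 and Wdr75.

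The remaining bound genes were given no role here. Wdr17 had the second strongest peak of the family in the combined list, with scores of 171 and 68.3 in replicates 1 and 2, rank 141, −log10 p of 236 and a fold enrichment of 33.2. Its summit lay in an intron, 162559 bp downstream of the 5′-most TSS and 87 bp upstream of an internal TSS. The peak of Wdr17 thus lay beside an annotated start inside the gene and far from the first one. For the 3 strongest combined peaks of the family, which differ in their match to the palindrome, the 130 bases before the TSS nearest to each summit are printed, with the best palindrome match in capitals.
Wdr66 (chr5:123251972-123252101, plus strand): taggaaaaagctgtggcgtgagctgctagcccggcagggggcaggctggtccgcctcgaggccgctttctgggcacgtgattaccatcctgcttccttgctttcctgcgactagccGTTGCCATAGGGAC
Wdr31 (chr4:62470897-62471026, minus strand): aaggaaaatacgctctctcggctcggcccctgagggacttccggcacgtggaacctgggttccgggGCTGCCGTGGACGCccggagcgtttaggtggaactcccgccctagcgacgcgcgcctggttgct
Wdr17 (chr8:54724505-54724634, minus strand): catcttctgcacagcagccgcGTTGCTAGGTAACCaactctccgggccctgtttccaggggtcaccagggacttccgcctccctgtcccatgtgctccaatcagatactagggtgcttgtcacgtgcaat
Counted from the TSS, the match began at base −14 in Wdr66, −64 in Wdr31 and −109 in Wdr17. It had 3 mismatches in Wdr66 and 5 in each of the others.

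Wdr54 scored 125 in replicate 1 and 29.1 in replicate 2, a ratio of 4.30 that was the largest among the 13 genes of the combined list, and ranked 644 (−log10 p of 131, 14.8-fold). Its summit lay 48 bp upstream of its TSS and 41 bp downstream of that of the divergent gene 1700003E16Rik. Wdr13, on the X chromosome, scored 66.6 and 28.7 and ranked 1016 (−log10 p of 102, 22.9-fold). Its summit lay 69 bp upstream of an internal TSS and 265 bp downstream of the 5′-most one, in an exon outside the coding sequence.

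Wdr93 scored 55.8 and 26.1 in replicates 1 and 2 and ranked 1522 (−log10 p of 75.5, 11.6-fold). Wdr27 scored 65.0 and 31.7 and ranked 1528 (−log10 p of 75.1, 6.74-fold). Both genes had almost the same −log10 p, and both summits lay within 2 bp of the TSS. The peak of Wdr93 was shared with the divergent gene Pex11a and that of Wdr27 with 1600012H06Rik. Wdr73 scored 23.5 in replicate 1 and 42.0 in replicate 2 and ranked 2380 (−log10 p of 50.1, 7.64-fold). Its summit lay 4 bp upstream of an internal TSS and 21 bp downstream of the 5′-most one. Of the 13 genes in the combined list Wdr73 was the only one with the higher score in replicate 2. Wdr37 (7.53) and Wdr64 (4.47) were listed in replicate 1 only, and Wdr1, Wdr25, Wdr38, Wdr49, Wdr53, Wdr70, Wdr72, Wdr83, Wdr86, Wdr89 and Wdr95 had no promoter peak.

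The replicates ordered the bound genes similarly. Across the 15 genes listed in both, Spearman's rho of the scores was 0.818, and across the 13 in the combined list it was 0.725. These are descriptions over genes of 2 mice, and the lists share the antibody. The score was higher in replicate 1 at 12 of the 13 genes, with a median ratio of 2.11 and a range of 0.559 to 4.30. By rank within each list the direction was the other way, with the better rank in replicate 2 at 11 of the 13. Neither comparison is given for other genes, so it is not a trait of Wdr genes. A replicate 1 peak without a replicate 2 peak was found at 5 Wdr genes (8.93%, interval 2.96 to 19.6), beside 4.92% of other genes. The converse was found at 0 of 56 Wdr genes, for which the upper bound of the exact interval was 6.38%, beside 2.23% of other genes. The replicate 1 list was the longer one, and cutting it to the length of the replicate 2 list removed 1 Wdr gene, Wdr33.

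The 13 combined peaks were of ordinary height among promoter peaks. Their median −log10 p was 102 and their median fold enrichment 15.8, beside 103 and 15.0 for the 990 other promoter peaks of the combined list. Median width was 938 bp, beside 879 bp. Of the 13 peaks, 5 (38.5%) also met the promoter of another protein-coding gene, at Wdr7, Wdr27, Wdr54, Wdr78 and Wdr93, a sharing seen at 15.8% of the other promoter peaks. The Wdr peaks were reached through genes, so a shared peak could be picked through either gene, whereas each other peak was counted once. These shares were therefore not counted alike, and the difference was not tested. At the 5 shared peaks the lists cannot assign the binding to either gene alone. The nearest TSS belonged to Wdr27, Wdr78 and Wdr93, but to the neighbour at Wdr7 and Wdr54.

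Summits lay close to the TSS. The median distance to the nearest TSS of the Wdr gene was 33 bp, beside 71.5 bp for the 1140 other genes with a combined promoter peak, and 11 of the 13 lay within 100 bp. In 11 of 13 (84.6%) the summit was upstream of that TSS, beside 73.9% of the other genes. The distance was to the nearest of all annotated TSSs. Bound Wdr genes had a median of 7 TSSs and the other bound genes 5. At Wdr13, Wdr17, Wdr73 and Wdr78 the nearest TSS was an internal one. Measured from the 5′-most TSS, the summits of these genes lay downstream. The part of TSS number in the shorter distance was not tested. By annotation 7 summits lay upstream of the gene, 5 in exons outside the coding sequence and 1 in an intron, that of Wdr17. None lay in coding sequence.

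**Figure D4:**
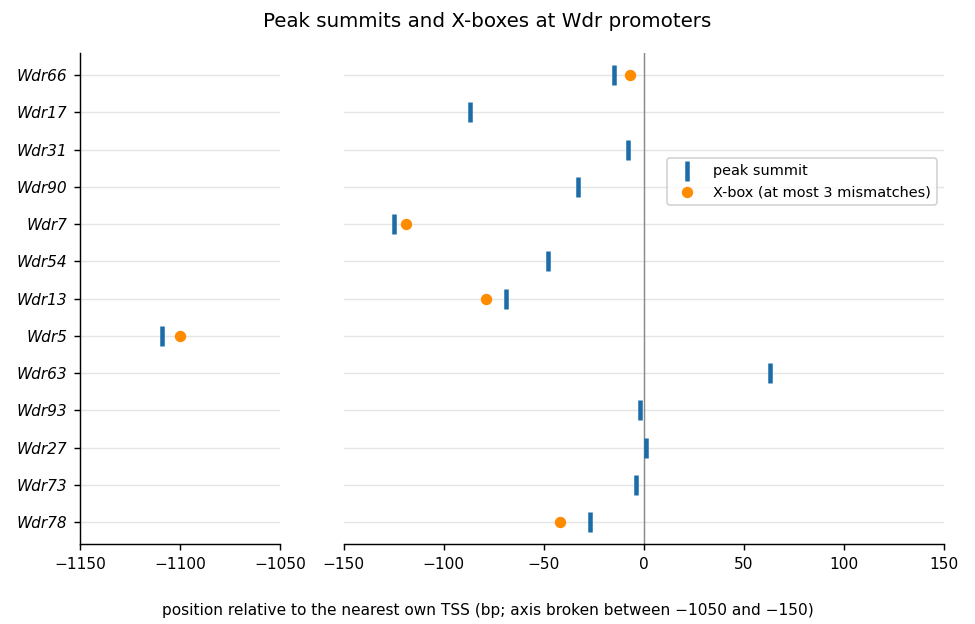
Positions of the summits (bars) and of X-boxes with at most 3 mismatches (dots) relative to the nearest TSS of each of the 13 Wdr genes, in bp, with the horizontal axis broken. Apart from Wdr5 at −1109 bp, summits lie between −125 and +63 bp, and each X-box lies within 15 bp of its summit.

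An X-box lay within the 200 bp around the summit in 5 of 13 Wdr peaks (38.5%, interval 13.9 to 68.4), beside 59.2% of the 990 other promoter peaks. The interval includes the share of the other peaks. The 5 were Wdr5, Wdr7, Wdr13, Wdr66 and Wdr78, with the X-box 6 to 15 bp from the summit. In windows of the same length 1000 bp away no Wdr peak (0 of 13, upper bound 24.7%) and 0.808% of other peaks held one. With at most 2 mismatches, Wdr5 and Wdr13 remained (15.4%), beside 34.1% of other peaks.

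The strict palindrome has 2 bases between the arms GTTGCC and GGCAAC. A looser search, chosen after the data were seen, let the arms lie 0 to 3 bases apart with at most 3 mismatches over the 12 arm bases. It found a match in 11 of 13 Wdr peaks (84.6%, interval 54.6 to 98.1), beside 91.9% of other peaks. The search was permissive, since in the windows 1000 bp away it found a match in 4 of 13 (30.8%) and 17.9%. With at most 2 mismatches it matched 4 of 13 Wdr peaks (Wdr5, Wdr13, Wdr17 and Wdr54), beside 64.5% of others. The Wdr share was 30.8% (interval 9.09 to 61.4), and this interval lay below the share of the others. At every other setting of the motif search under the peaks, the Wdr interval included the share of the others. No deficit is concluded from a single setting chosen after the data were seen. In the windows 1000 bp away the looser search with at most 2 mismatches matched 0 of 13 Wdr peaks and 2.02% of others. At Wdr17 the arms were 1 base apart. The match is shown with the arms in capitals, since it lies under the second strongest Wdr peak, in which the palindrome search had found 5 mismatches.
Wdr17 (chr8, minus strand): gcagccgcGTTGCTaGGTAACcaactctc
Wdr54 (chr6, minus strand): acccaacgGTCTCCtcGGCAACcaggcccc
In Wdr27 and Wdr73 the best match of the looser search still had 4 mismatches. A single complete arm on either strand was present in 5 of 13 Wdr peaks (Wdr5, Wdr13, Wdr54, Wdr66 and Wdr90), beside 57.1% of others.

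Searched without regard to peaks, the promoter at the 5′-most TSS held an X-box in 9 of 56 Wdr genes (16.1%) and in 8.95% of 21875 other genes. It was present in 46.2% of the 13 bound Wdr genes and 48.3% of the 1140 other bound genes. Such a match need not lie under the peak. That of Wdr17 lay at the 5′-most TSS, whereas its summit lay 162559 bp downstream of that TSS. That of Wdr5 had 3 mismatches and was not the site under the summit, which lay outside the promoter window. An X-box was also present in 3 of 43 Wdr genes without a combined peak (6.98%), beside 6.79% of other genes without one. The 3 are printed because they carry the letters without a combined peak.
Wdr47 (chr3:108591635-108591664, plus strand): caccgtggGTTGCCATGGTCACccgtcgcc
Wdr75 (chr1:45795041-45795070, plus strand): ccacttcaGTTACCATTGCAAGaagacgct
Wdr83 (chr8:85080325-85080354, minus strand): gacctacaGTGGCCACGGCTACgaagtgct
Wdr47 differed at C11T and A12C only, and its match lay inside the weak peaks of both replicates. It lay in an intron, 371 bp downstream of the 5′-most TSS. Wdr75 (G4A, G9T and C14G) and Wdr83 (T3G, T8C and A12T) had 3 mismatches each and no peak of either replicate over the match. That of Wdr75 lay at −110 bp from the TSS and that of Wdr83 in a coding exon.

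Combined peaks in the gene body outside the gene's own promoters were found at 3 Wdr genes (5.36%, interval 1.12 to 14.9), beside 3.18% of other genes. All 3 were genes without a promoter peak, and each peak held an X-box near its summit with at most 2 mismatches. Wdr genes were longer than other genes (median 34.1 against 17.4 kb), and the part of length in this share was not tested. Outside the promoters of all genes, Wdr25 and Wdr95 remained (3.57%, beside 2.98% of other genes). The sequences are shown because they matched the palindrome as well as or better than those of the promoter peaks.
Wdr95 (chr5:149554571-149554600, plus strand): tggtggctGTTGCCTTGGCAACaggtctgc
Wdr25 (chr12:108916128-108916157, plus strand): gtgaagctGTTGCCACGGTAACagaagcct
Wdr24 (chr17:25828793-25828822, plus strand): ggggcgctGTAGCCATGGTAACgcacagta
Wdr95 differed at A7T alone. Its peak lay in an intron 18006 bp downstream of the nearest own TSS, ranked 2641 (−log10 p of 44.4, 13.2-fold), and scored 29.1 in replicate 1 and 19.0 in replicate 2. The intronic peak of Wdr25 was stronger, with scores of 99.5 and 36.2 and rank 584 (−log10 p of 139, 25.6-fold), 3400 bp downstream of the nearest own TSS. The site differed at T8C and C11T. The peak at Wdr24 (T3A and C11T) scored 75.5 and 27.8 and ranked 1159 (−log10 p of 92.4, 11.1-fold), but it covered the 3′ end of the gene, with its summit just past it, and met the promoter of the neighbouring gene Jmjd8. Among the 43 Wdr genes without a combined promoter peak, the nearest combined peak lay at a median of 249 kb from their nearest TSS. At 4 genes, Wdr6, Wdr11, Wdr24 and Wdr25, that peak lay within 10 kb.

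The rule by current symbol leaves out genes that carry Wdr and a number only among their synonyms. The reference table gave 28 such protein-coding genes, of which 7 had a combined promoter peak. These were Spag16, Daw1, Cfap52, Cfap44, Cfap43, Cfap57 and Ift122, genes of the axoneme, of dynein arm transport or of intraflagellar transport. The others had no combined promoter peak, among them Ift80, an intraflagellar transport gene by its symbol. With them 20 of 84 genes (23.8%) were bound, a share close to that of the 56, beside 5.18% of other genes. Paralogs with a letter in the symbol added no combined peak, which gave 22.0% of 59 genes, beside 5.21% of other genes. Wdr20rt, without a combined promoter peak, was counted in both of these added sets.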

How the data were processed

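RFX2 ChIP-seq of testis from 2 WT mice with 2 inputs was analysed from the authors' peak lists. Groups came from the sample titles. Per the labels, reads were processed with CASAVA 1.8.2, Bowtie 0.12.7 and MACS2 2.0.10.20130520 on GRCm38. Per the study's methods, reads with several locations were discarded, which hides binding in repeats, and a second run of replicate 2 was cleared of reads matching human DNA, which can lower replicate 2 in conserved sequence. The deposited replicate lists give 1 −log10 value per peak. The deposited combined list gives fold enrichment (a ratio over local background), −log10 p and the summit. Its peak names begin with "all" although the archive attaches it to replicate 2, so it was taken for a call on both mice together, and its overlap with either replicate is not independent. The study's methods keep peaks that both replicates rank reproducibly (irreproducible discovery rate, IDR). Whether the combined list is the outcome of that step is not stated. If so, its peaks were chosen for agreement between the replicates. Whether the deposited replicate lists come from a default or a relaxed call is not stated either.

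The files name Ensembl release 70. Genes and TSSs were taken from GENCODE release M21 and sequence from the RefSeq copy of GRCm38.p6, so TSSs can differ from those the authors used. Peaks met promoters (1000 bp upstream to 500 bp downstream of any TSS) by at least 1 bp. X-boxes were matches to the 14-base palindrome with at most 3 mismatches. Shares carry exact 95% intervals from SciPy 1.17.1, with pandas 2.3.3, NumPy 2.4.6 and pysam 0.24.0. The peak overlap and motif search were tested on simulated data. Every Wdr gene with a combined promoter peak, or with peaks in both replicates, was named with its values, and the others by role. Genes of gene body peaks, of X-boxes without a combined peak and of Wdr synonyms were named after their values were seen, and so were the 3 longer sequences. The members, role lists and searches were chosen with earlier results of these data known. Alternatives changed the promoter window, the TSSs, the overlap rule, the list threshold, the members, the replicates and the motif search. The 4 genes left out are not analysed here. Depth per library is unknown, so no interval on peak height is given.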

Additional observations from a re-analysis of the deposited data

How the results depend on the processing

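Of 41 alternative values, 40 moved by less than the interval of the value reported. The exception was the looser motif search, added after the data were seen, which raised the share of Wdr promoter peaks with a match from 38.5% to 84.6% (91.9% of other peaks); its construction allows more sequences to match. In all 34 alternatives of the promoter shares the share of Wdr genes was above that of other genes, by at least 10.9 percentage points. Keeping only peaks above the median score of the combined list left 8 of 56 Wdr genes (14.3%, beside 3.40%) and lost Wdr27, Wdr63, Wdr73, Wdr78 and Wdr93. Requiring the nearest TSS to be the gene's own, also added after the data were seen, lost Wdr7 and Wdr54 (19.6%, beside 4.49%). Without replicate 1 or replicate 2 the share listed ranged from 26.8 to 35.7%. No paired analysis was possible because the inputs have no list of their own and the shares come from no test. With 13 bound genes the intervals on their features are wide, and without read counts the depth of a missing peak cannot be stated.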
